A study of Homo sapiens with 12 samples.

Results

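Vemurafenib-resistant A375 cells were compared with vemurafenib-resistant SKMel28 cells across all genes. The comparison used 6 of the 12 libraries of the series, 3 from each resistant line, chosen by the line and treatment named in the labels. A375 and SKMel28 are established human melanoma cell lines that carry an activating mutation of the kinase BRAF, and vemurafenib is an inhibitor of the mutant kinase. Both lines were grown in DMEM with fetal bovine serum, and both resistant derivatives were kept in 1 µmol/L vemurafenib. The other 6 libraries came from the sensitive cells of each line, for which no drug is named, and were used to show which gaps were also found between the sensitive lines. The stated aim of the series was to examine how IGF1 signalling bears on acquired resistance to BRAF and MEK inhibition. As the labels give them, each line has 1 resistant derivative, so features of the line and features of that derivative cannot be told apart, and neither can resistance and the presence of the drug. Nothing in the labels tells whether replicate libraries are separate cultures, and the p-values below therefore reflect the spread among these libraries alone, which may be technical.

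Melanoma cells can move between states. In a melanocytic state the transcription factors MITF and SOX10 maintain pigment and melanosome genes, in a neural crest-like state genes such as NGFR are active, and in an undifferentiated state MITF and SOX10 are low while AXL, EGFR, SOX9 and AP-1 factors are high. Under BRAF inhibition, cells can regain growth through receptor tyrosine kinases, which feed RAS, ERK and AKT, and through the insulin-like growth factor system, in which IGF1R and INSR signal through the adaptors IRS1 and IRS2 and secreted binding proteins hold the ligands. Genes switched on by ERK, among them DUSP6, SPRY4, FOSL1 and CCND1, are commonly read as its transcriptional output.

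Between 30446340 and 37148091 reads were assigned to genes in each resistant library, and the biological coefficient of variation over all groups was 4.20%. Mitochondrially encoded genes took 2.20% ± 0.0859 of gene reads in resistant A375 and 6.95% ± 0.163 in resistant SKMel28 (SD, n = 3). The melanocyte identity of the labels was borne by 1 line only: of 8 defining melanocyte markers, 7 were below 1 CPM (reads scaled to a common library total) in resistant A375, with MITF the exception, and all 8 were above 10 CPM in resistant SKMel28. The 8 melanocyte markers summed to 31.3 to 33.7 CPM in resistant A375 libraries and 10924.5 to 11076.5 in SKMel28. Keratinocyte markers (15 genes) summed to 153 to 160 CPM in resistant A375 libraries and 31.9 to 37.3 in SKMel28, fibroblast markers (13) to 37.1 to 42.7 and 28.9 to 32.0, and endothelial markers (11) to 10.5 to 11.6 and 4.05 to 4.32. Leukocyte markers (15) summed to 60.2 to 64.0 CPM in A375 and 759 to 764 in SKMel28, where the lysosomal gene CD68 alone stood at 761. The part of these markers in the results was not tested. In bulk RNA, fewer cells of a kind and less RNA per cell cannot be told apart.

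The resistant lines differed at most genes that could be tested. Of 26499 genes in the files, 15506 had enough reads to be tested, and 13223 of them (85.3%) differed at an adjusted p (Benjamini-Hochberg) under 0.05, which is what a call means below. The calls split evenly, with 6604 higher in A375 (42.6%) and 6619 higher in SKMel28 (42.7%). A difference of at least 2-fold was called for 7154 genes (46.1%), 3672 higher in A375 (23.7%) and 3482 higher in SKMel28 (22.5%), and one of at least 16-fold for 1207 genes higher in A375 and 770 higher in SKMel28. Libraries of the resistant lines did not overlap in 13329 genes (86.0%), with A375 above in 42.9% and SKMel28 above in 43.0% of genes tested, nor in any gene given below by library unless it is said there. With so many calls, a call on a single gene says little by itself, so shares of a gene list are read here against those background shares. Where a pair of CPM values is given without more words, resistant A375 or sensitive A375 comes first. Between the sensitive lines, 12860 genes (82.9%) were called and 6234 (40.2%) differed by at least 2-fold, 20.3% of genes tested towards A375 and 19.9% towards SKMel28. The median absolute log2 difference was 0.92 between resistant lines and 0.78 between sensitive lines.

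Most of the large differences between the resistant lines were also present between the sensitive lines. Of the 7154 genes at least 2-fold apart in the resistant pair, 4587 (64.1%) were also at least 2-fold apart in the same direction in the sensitive pair, where they made up 73.6% of the 6234. Another 212 genes were at least 2-fold apart in opposite directions in the 2 pairs. Across genes, which are not independent replicates, the fitted gaps of both pairs had a Pearson r of 0.79 and a Spearman rho of 0.76. The change of gap, which is the resistant log2 difference minus the sensitive one and is positive towards A375, was called for 9891 genes (63.8%), of which 1909 shifted by at least 2-fold towards A375 and 1731 towards SKMel28.

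**Figure D1:**
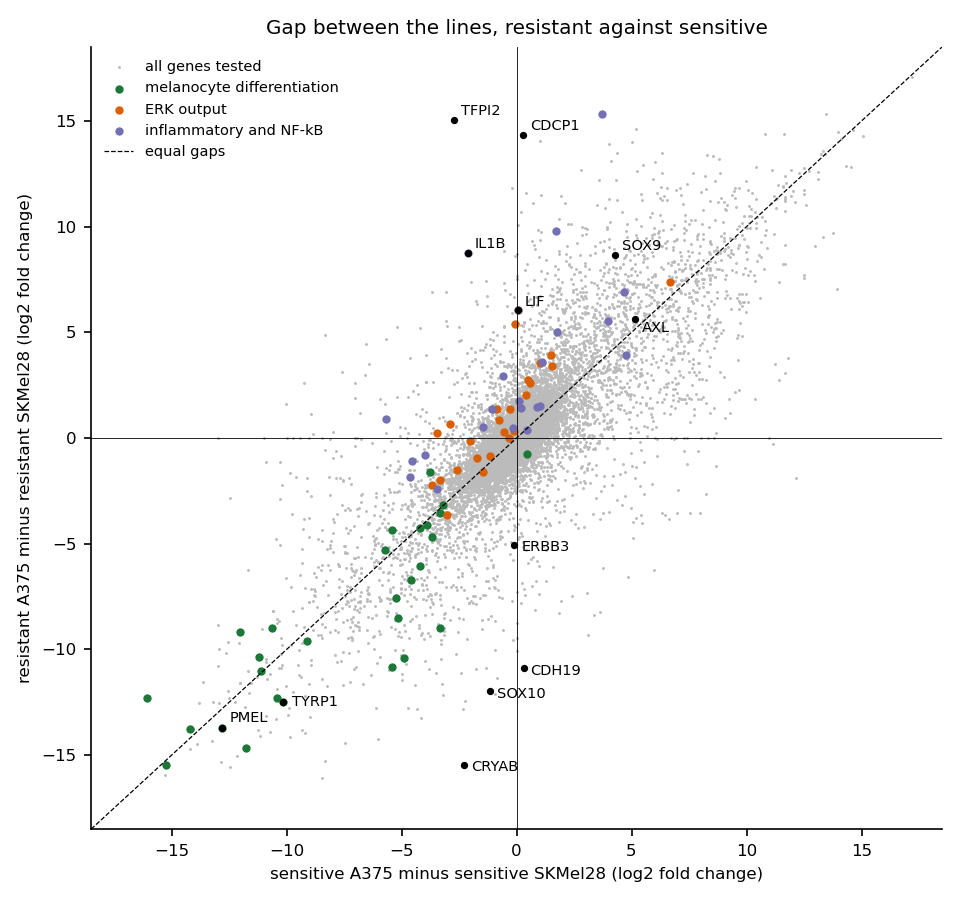
Fitted log2 fold change of A375 over SKMel28 for each of the 15506 tested genes, between sensitive lines (horizontal axis) and between resistant lines (vertical axis), with 3 gene lists coloured and equal gaps on the dashed line. Melanocyte differentiation genes lie at the lower left in both pairs, most ERK output and inflammatory genes lie above the dashed line, and SOX10, CDH19, CRYAB, TFPI2, IL1B and CDCP1 lie far from it. Genes with 0 reads in a group have fitted positions that depend on the small count added in the fit.

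Ranked by fitted difference, the genes highest in resistant A375 relative to resistant SKMel28 were mostly genes without a single read in the other line. For a group at 0 reads that difference depends on the small count added in the fit, so such genes rank high by the method. This holds in both directions. THBS1, at 1214 CPM in resistant A375 and 0.335 in resistant SKMel28, did not enter the rank. IGFBP4, which encodes a secreted binding protein for insulin-like growth factors (chr17:40443461-40457731, GRCh38), stood at 528, 529.7 and 513 CPM in resistant A375 and at 0 reads in all 3 resistant SKMel28 libraries, hence at least 17201-fold higher against a floor of 3 reads over the group. ANPEP, the surface aminopeptidase CD13, stood at 572, 557 and 579 CPM in A375 and gave 1 read in SKMel28, a ratio of 56134 (95% counting interval 10075 to 2217220.00). The other genes of this rank with 0 reads in SKMel28 were TNFAIP2, TFPI2, SLC14A1, GDA, CITED4, ADGRF1, STC2, CDCP1, PNMAL1 and PLA2G16, with lower bounds from 2124-fold for PLA2G16 to 5084-fold for TNFAIP2. IGFBP4, GDA, CITED4 and PNMAL1 were also at 0 reads in sensitive SKMel28, whereas PLA2G16 had stood there at 38.3 CPM and CDCP1 at 16.9. The rule that named these genes required resistant groups without overlap, so their separation follows from the choice.

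In the opposite direction, A2M, which encodes the protease inhibitor alpha-2-macroglobulin (chr12:9067664-9116229), had 0 reads in resistant A375 and 264, 270.5 and 251 CPM in resistant SKMel28, at least 8934-fold higher. BIRC7, an inhibitor of apoptosis of melanocytic cells, stood at 0 reads and 178, 189 and 191 CPM, at least 6356-fold. CRYAB, a small heat shock protein, had 0 reads in resistant A375 and 171, 169 and 179 CPM in resistant SKMel28, at least 5902-fold, although sensitive SKMel28 cells had held only 0.299 CPM. The other genes of this rank were TYR, IGSF11, LXN, TRPM1, TRIM63, PASD1, ATP10B and ALDH1A1, all at 0 reads in resistant A375 and at least 2347-fold higher in SKMel28, and MBP, the myelin basic protein gene, at 4 reads against 86917. TYR, TRPM1, BIRC7, IGSF11 and TRIM63 are known for activity in pigment cells.

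The whole melanocyte differentiation program separated the resistant lines. All 28 tested members of a 30-gene list were higher in SKMel28 and none was higher in A375, 27 of them by at least 2-fold, with a median log2 difference of -8.99, or -8.75 with genes at 0 reads set to their bound, against 0.01 over all genes tested. PMEL, which encodes the fibril protein of melanosomes, stood at 0.475, 0.297 and 0.575 CPM across the A375 resistant libraries and 6196, 6145 and 6002 across those of SKMel28, a log2 difference of -13.72 (SE 0.07, adjusted p = 5.7e-57). MLANA, a melanosome antigen, stood at 0.559, 0.446 and 0.303 CPM in A375 and 867, 901 and 955 in SKMel28, a log2 difference of -11.00. The pigment enzymes followed: TYRP1 was at 0.559, 0.208 and 0.272 CPM in A375 and 2039.6, 2030.2 and 2042 in SKMel28, and DCT at 0, 0.0297 and 0.0908 CPM in A375 and 226, 217 and 209 in SKMel28. TYR, tyrosinase, the enzyme of the first steps of melanin synthesis, had 0 reads in A375 and 179, 170.3 and 173 CPM in SKMel28, at least 5944-fold higher. In each of these genes all 3 SKMel28 libraries stood far above all 3 A375 libraries. SLC24A5, a melanosomal cation exchanger, gave 1 read in A375 and 191 CPM in SKMel28.

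Much of this gap was present between the sensitive lines as well. They had a list median of -5.42, with PMEL at 0.649 CPM in A375 and 4545 in SKMel28. The median of the members' own changes of gap was only -0.37. The change of gap was called for 19 of the 28 members, 14 towards SKMel28 and 5 towards A375, where 63.8% of all tested genes had a called change, 32.4% towards SKMel28 and 31.4% towards A375. Among those towards SKMel28, TYRP1 stood at 218 CPM in sensitive and 2037 in resistant SKMel28, and its gap was wider in the resistant pair, a change of gap of -2.32 (SE 0.41, adjusted p = 4.09e-06) that rests on 36 reads in resistant and 19 in sensitive A375. DCT moved the other way, by 3.78, but this value rests on 4 reads in resistant and none in sensitive A375, so it depends on the small count added in the fit, and it was no longer called without resistant A375 library 3 (2.56, adjusted p = 0.204) or without sensitive A375 library 1 (3.75, adjusted p = 0.0591).

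The promoters of 2 pigment enzymes that separated the lines are shown because both hold repeats of the M-box core CATGTG, the kind of element that MITF binds. The 250 bases before the start of each gene are given 5′ to 3′ on the gene's strand (RefSeq, GRCh38.p14), with CATGTG or its reverse complement in capitals.
TYR, chr11:89177625-89177874, plus strand: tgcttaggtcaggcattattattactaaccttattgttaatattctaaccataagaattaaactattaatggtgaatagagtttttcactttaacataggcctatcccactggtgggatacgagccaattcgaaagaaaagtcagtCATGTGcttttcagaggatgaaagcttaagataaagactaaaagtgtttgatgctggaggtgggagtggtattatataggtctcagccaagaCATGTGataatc
TYRP1, chr9:12693135-12693384, plus strand: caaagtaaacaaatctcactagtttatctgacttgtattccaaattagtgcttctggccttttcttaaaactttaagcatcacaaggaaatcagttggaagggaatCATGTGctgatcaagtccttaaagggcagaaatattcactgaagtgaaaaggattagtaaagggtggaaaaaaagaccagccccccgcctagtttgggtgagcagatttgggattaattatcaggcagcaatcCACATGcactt
In TYR the copies begin 104 and 12 bases before the start, and in TYRP1 144 and 11 bases before it. On either strand, CATGTG was found in 10 of 23 list members with a promoter in the table (43.5%), in 9.54% of all 27305 promoters of this length and in 6.03% of the promoters of tested genes. In the other lists scanned, described below, it was found in 8.33% (undifferentiated), 13.3% (ERK output), 17.4% (inflammatory) and 17.6% (protease) of matched promoters. The palindromic E-box CACGTG was found in 1 of the 23 (4.35%) and in 6.49% of all promoters. A match is a run of letters and not a measured binding site.

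The regulators of this program differed in the size of their gap and in how far the sensitive lines shared it. MITF, the master regulator of the melanocyte lineage (chr3:69739435-69968337), stood at 29.4, 31.2 and 32.3 CPM in resistant A375 and 846, 794 and 781 in resistant SKMel28, a log2 difference of -4.70 (SE 0.04, adjusted p = 1.72e-50). The gap was wider than between the sensitive lines, a change of -1.02. SOX10, a neural crest and melanocyte factor upstream of MITF (chr22:37970686-37987422), stood at 0.0839, 0.178 and 0.151 CPM in resistant A375 and 541, 588 and 578 in resistant SKMel28, a log2 difference of -11.98 (SE 0.09, adjusted p = 5.69e-54). Both sensitive lines had expressed it, at 325 ± 6 CPM in A375 and 722 ± 31.1 in SKMel28, so the gap was wider in the resistant pair, a change of gap of -10.84 (SE 0.11, adjusted p = 3.53e-47). SOX9, a related factor of mesenchymal and undifferentiated cells (chr17:72121020-72126420), was the reverse: 201, 206 and 195 CPM in resistant A375 and 0.369, 0.536 and 0.554 in resistant SKMel28, a log2 difference of 8.68 (SE 0.09, adjusted p = 9.13e-48), with 28.8 and 1.46 CPM in the sensitive lines. SOX2, a stem cell factor, was low in both, at 0.923, 1.72 and 2.15 CPM in A375 and 3.59, 3.31 and 4.23 in SKMel28.

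**Figure D2:**
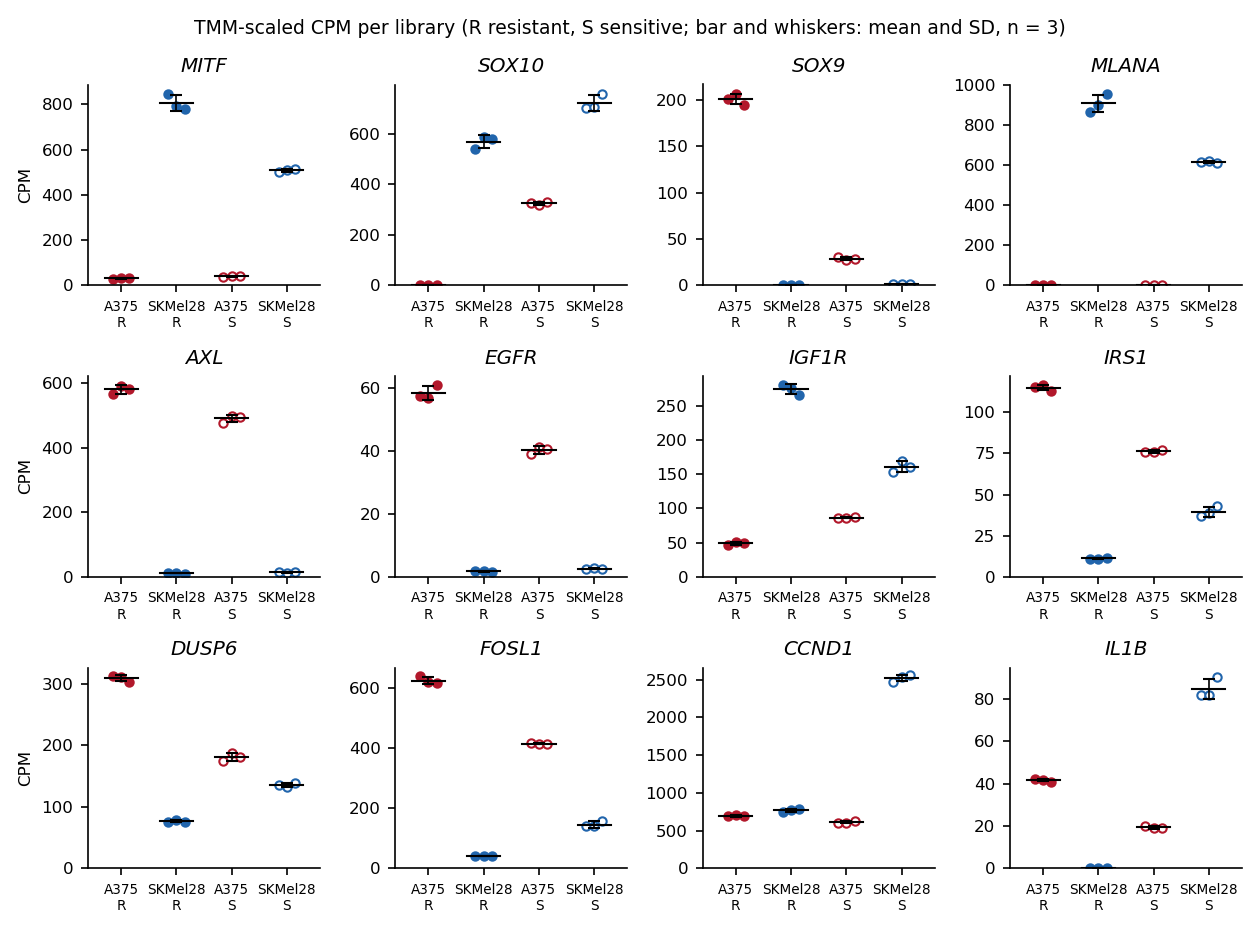
TMM-scaled CPM (vertical axes, from 0) of 12 genes in each library of the 4 groups, filled points for resistant and open points for sensitive cells, with the mean and SD of 3 libraries. MITF, SOX10, MLANA and IGF1R were higher in resistant SKMel28, and SOX9, AXL, EGFR, IRS1, DUSP6, FOSL1 and IL1B higher in resistant A375, with CCND1 nearly level.

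Of the wider neural crest list, 15 of 21 tested genes were higher in SKMel28 and 5 in A375, beside 42.7% and 42.6% of all tested genes. The list median was -2.97 against 0.01 over all genes. ERBB3, a neuregulin receptor controlled by SOX10 in this lineage, stood at 4, 3.39 and 3.78 CPM in resistant A375 and 127, 126 and 119.6 in resistant SKMel28, a log2 difference of -5.06 (SE 0.06, adjusted p = 3.15e-45). The sensitive lines were close, at 124 and 133 CPM, and the change of gap was -4.96. CDH19, a cadherin of Schwann cell precursors, showed a like pattern, with 0.0280, 0.0595 and 0.0303 CPM in resistant A375 and 83, 82.9 and 80.0 in resistant SKMel28 against 15.4 and 12.4 in the sensitive lines. SOX8 and ALDH1A1 had 0 reads in resistant A375 and 13 and 68.7 CPM in resistant SKMel28. NGFR, the low-affinity neurotrophin receptor, went against the list: it stood at 96.2, 88.7 and 90.5 CPM in resistant A375 and 22.1, 23.5 and 21.3 in resistant SKMel28, a log2 difference of 2.04 (SE 0.05, adjusted p = 1.37e-33), although sensitive SKMel28 had held 401 CPM and sensitive A375 162.

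Single receptor tyrosine kinases lay far apart between the resistant lines. Of 27 tested receptors 11 were higher in A375, 15 were higher in SKMel28 and 1 was not called, beside 42.6% and 42.7% of all tested genes. AXL, the receptor for GAS6, stood at 567, 593 and 581 CPM in resistant A375 and 12.3, 12.6 and 10.2 in resistant SKMel28, a log2 difference of 5.63 (SE 0.05, adjusted p = 1.98e-49). EGFR stood at 57.4, 57 and 60.9 CPM in A375 and 1.78, 1.86 and 1.6 in SKMel28, a log2 difference of 5.06, and PDGFRB at 15.9, 16.9 and 13.7 CPM in A375 and 0.123, 0.0630 and 0.117 in SKMel28. EPHA2, an ephrin receptor, had a mean of 493 CPM in A375 and 2.92 in SKMel28. Most of each gap was present between the sensitive lines, where A375 and SKMel28 differed by 5.16 on the log2 scale for AXL, 3.99 for EGFR and 6.97 for PDGFRB. The change of gap was called for AXL (0.47) and EGFR (1.07) and was not called for PDGFRB, at 0.23 (SE 0.61, adjusted p = 0.769). MET, the receptor for hepatocyte growth factor, was abundant in both, at 312, 309 and 323 CPM in resistant A375 and 614, 562 and 547 in resistant SKMel28. Its order was the opposite of that in the sensitive lines, where A375 stood at 252 CPM and SKMel28 at 126, and the change of gap was -1.86 (SE 0.05, adjusted p = 1.69e-30).

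In the IGF axis, on which the series was designed, receptors and adaptors were unevenly placed. IGF1R stood at 46.3, 50.7 and 49.6 CPM in resistant A375 and 281, 275 and 266 in resistant SKMel28, a log2 difference of -2.49 (SE 0.04, adjusted p = 4.77e-40). The sensitive lines were closer, at 86.1 and 161 CPM, and the gap was wider in the resistant pair, a change of gap of -1.58 (SE 0.06, adjusted p = 3.15e-26). The adaptor IRS1 was reversed in placement: 116, 117 and 113 CPM in resistant A375 and 11, 11 and 11.7 in resistant SKMel28, a log2 difference of 3.35 (SE 0.06, adjusted p = 8.01e-40), against 76.2 and 39.6 in the sensitive lines. The line with more receptor mRNA thus held less mRNA of this adaptor, and neither gene's groups overlapped. IRS2, the second adaptor, differed less, at 86.9, 89.4 and 90.6 CPM in A375 and 152, 139.7 and 142 in SKMel28, and INSR, the insulin receptor, stood at 8.58, 7.91 and 7.72 CPM in A375 and 14.3, 13.4 and 13.4 in SKMel28.

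Secreted binding proteins of the ligands lay on both sides. Besides IGFBP4, IGFBP6 was at 199.9 CPM in resistant A375 and 0.605 in resistant SKMel28, and IGFBP3 at 149.8, 144 and 146 CPM in A375 and 47.6, 48.6 and 48.7 in SKMel28, a log2 difference of 1.60 (SE 0.05, adjusted p = 1.27e-30). IGFBP7, IGFBP5 and IGFBP2 were higher in SKMel28, at 20.8 and 111, 0.849 and 4.14, and 60.8 and 80.3 CPM. The stanniocalcins, which inhibit the pappalysin proteases that cleave IGFBP4, were higher in A375 as well: STC2 at 80.6 CPM against 0 reads, at least 2649-fold, and STC1 at 290.1 CPM against 3.79. For STC1 the sensitive lines had the opposite order, 11.6 CPM in A375 and 28.5 in SKMel28, and the change of gap was 7.56 (SE 0.10, adjusted p = 1.38e-40). Of all 22 tested members of the IGF list, 11 were higher in A375 and 11 in SKMel28, beside 42.6% and 42.7% of all tested genes. The median was -0.07, so the list as a whole had no side.

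The genes of the MAPK pathway leaned to SKMel28 and most of the transcripts read as their output leaned to A375. Of 23 pathway genes, 14 were higher in SKMel28, 7 in A375 and 2 were not called, beside 42.7% and 42.6% of all tested genes. NRAS was at 71.4 CPM in resistant A375 and 211 in SKMel28, and MAP2K1, a MEK kinase, at 144 and 46.4. BRAF, the drug's target, was not called, with 12, 10.0 and 11.3 CPM in resistant A375 and 13, 11.6 and 9.59 in resistant SKMel28, overlapping groups and a log2 difference of -0.03 (SE 0.10, adjusted p = 0.753). RASGRP3, an activator of RAS, stood at 0.445 CPM in A375 and 122 in SKMel28.

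Of 25 ERK output genes, 16 were higher in resistant A375, 8 in resistant SKMel28 and 1 was not called, beside 42.6% and 42.7% of all tested genes. The list median was 0.67 between resistant lines and -0.54 between sensitive lines. The change of gap was called for all 25, 23 towards A375 and 2 towards SKMel28, where 31.4% of all tested genes shifted towards A375 and 32.4% towards SKMel28. DUSP6, a phosphatase that switches ERK off, stood at 313, 312 and 303 CPM in resistant A375 and 75.3, 78.5 and 75.5 in resistant SKMel28, a log2 difference of 2.02 (SE 0.04, adjusted p = 1.98e-38) against 0.42 between sensitive lines. FOSL1, an AP-1 subunit stabilised by ERK, stood at 639, 619 and 617 CPM in A375 and 40.3, 41.8 and 41.9 in SKMel28, a log2 difference of 3.92. PLAUR, the urokinase receptor, was at 105 CPM in resistant A375 and 2.51 in resistant SKMel28, against 66.8 and 69.9 in the sensitive lines.

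Feedback and cell cycle targets of ERK did not all follow. SPRY4, an inhibitor of receptor signalling, was lower in A375, at 38.2, 38.8 and 40.1 CPM against 77.2, 74.2 and 76.3, a log2 difference of -0.96 (SE 0.05, adjusted p = 1.85e-22). CCND1, cyclin D1, was nearly level, at 688, 709 and 691 CPM in resistant A375 and 747, 771 and 788 in resistant SKMel28, a log2 difference of -0.14 (SE 0.03, adjusted p = 5.92e-05) that turned to 0.0699 (adjusted p = 0.0246) when libraries were scaled by their totals. The sensitive lines stood far apart for CCND1, at 611 and 2519 CPM. Among AP-1 and other immediate early genes, 14 of 21 were higher in A375 and 5 in SKMel28, beside 42.6% and 42.7% of all tested genes. The A375 side held KLF4 at 25.4 and 1.58 CPM, and the SKMel28 side NR4A1 at 10.2 and 132 and FOS at 5.46 and 26.

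Most inflammatory genes were higher in resistant A375, while between the sensitive lines their median gap was near 0. Of 23 tested genes, 18 were higher in A375, 4 in SKMel28 and 1 was not called, beside 42.6% and 42.7% of all tested genes. The median was 1.52 between resistant lines and 0.09 between sensitive lines. A change of gap was called for 20, all towards A375, where 31.4% of all tested genes shifted towards A375 and 32.4% towards SKMel28. IL1B, the cytokine interleukin-1 beta (chr2:112829751-112836903), stood at 42.4, 41.8 and 41 CPM in resistant A375 and 0.184, 0.0630 and 0.0292 in resistant SKMel28, a log2 difference of 8.78 (SE 0.16, adjusted p = 2.07e-39). Sensitive SKMel28 had held 84.8 ± 4.85 CPM and sensitive A375 19.4 ± 0.630, the opposite order. LIF, a cytokine of the interleukin-6 family, stood at 150.04, 148 and 156 CPM in A375 and 2, 2.77 and 2.1 in SKMel28 beside near-equal sensitive levels of 112 and 106. TNFAIP2, a target of tumour necrosis factor, was at 155 CPM against 0 reads, and IL7R, the receptor of interleukin-7, at 100.4 against 2.15. CXCL8, the chemokine interleukin-8, was an exception to the direction, at 28.9, 32.1 and 31.9 CPM in A375 and 53.8, 56.1 and 54.5 in SKMel28, yet its gap narrowed from -3.98 between sensitive lines to -0.82.

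Antigen presentation genes were split, beside 42.6% of all tested genes higher in A375 and 42.7% higher in SKMel28. Among interferon-stimulated genes 17 of 29 were higher in A375 and 7 in SKMel28, led by MX2, an antiviral GTPase, at 52.4 and 0.0517 CPM. Among MHC class I and peptide loading genes 10 of 17 were higher in A375 and 6 in SKMel28, with the regulator NLRC5 at 18.5 and 2.31 CPM. HLA-F, which shares sequence with other HLA genes and is therefore uncertain, was at 2.13 and 19.2. CD74, the invariant chain of MHC class II, stood at 63.7 CPM in A375 and 0.968 in SKMel28, against 437 and 3.55 in the sensitive lines. Of 12 tested class II genes 5 were higher in A375 and 2 in SKMel28, all by at least 2-fold, and 5 were not called. The class II median was 0.04 between resistant lines and 4.55 between sensitive lines. A change of gap was called towards SKMel28 in 8 of the 12 class II genes and towards A375 in 1, beside 32.4% and 31.4% of all tested genes. CD274, which encodes PD-L1, was at 26 CPM in resistant A375 and 2.9 in SKMel28, and TNFRSF14, a receptor of the TNF family, at 4.6 and 205.

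Genes of the undifferentiated, invasive state were more often higher in A375, in 21 of 29 tested genes against 7 in SKMel28. Over all tested genes 42.6% were higher in A375 and 42.7% in SKMel28. The list median was 1.12. The sensitive lines had a larger median, 2.23, yet the median of the members' own changes of gap was 0.34, towards A375. The change was called towards A375 in 15 genes and towards SKMel28 in 10, beside 31.4% and 32.4% of all tested genes. THBS1, the matrix glycoprotein thrombospondin-1, had a mean of 1214 ± 25.3 CPM in resistant A375 and 0.335 ± 0.0830 in resistant SKMel28 (SD, n = 3). FN1, fibronectin, was the counterexample, at 129 ± 9.9 CPM in A375 and 7615 ± 684 in SKMel28. INHBA, a subunit of activin, was at 50.2 CPM in A375 and 0.0397 in SKMel28. Targets of YAP and TEAD, the effectors of Hippo signalling, were higher in A375 in 17 of 20 genes and lower in 3. Their median was 1.19 between resistant lines and 1.20 between sensitive lines. ANKRD1 stood at 55.6 and 1.09 CPM, while AMOT, a regulator of YAP, stood at 0.379 and 68.1.

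Of 7 genes of the epithelial to mesenchymal switch, 4 were higher in A375 and 3 in SKMel28, beside 42.6% and 42.7% of all tested genes. The list as a whole thus had no clear side, while the paralogs ZEB1 and ZEB2 lay on opposite sides. ZEB1 stood at 31.8, 34.3 and 40.05 CPM in resistant A375 and 0.952, 1.1 and 0.904 in resistant SKMel28, a log2 difference of 5.16 (SE 0.12, adjusted p = 9.58e-35). ZEB2, its paralog of melanocytic cells, stood at 13.8, 13.1 and 14.9 CPM in A375 and 289.8, 272 and 276 in SKMel28, a log2 difference of -4.32 (SE 0.05, adjusted p = 1.2e-46). SNAI2, another factor of melanocytes and neural crest, was at 1.13 CPM in A375 and 247 in SKMel28. All 3 had the same order in the sensitive lines, with log2 differences of 4.82 for ZEB1, -3.45 for ZEB2 and -9.02 for SNAI2. TWIST1, a factor of mesenchymal cells, was at 13.1 and 4.77 CPM, against 14.3 and 20.5 in the sensitive lines. CDH1, E-cadherin, was nearly absent from A375 with 4 reads and stood at 14.6, 15.9 and 16.7 CPM in SKMel28, while CDH2, N-cadherin, was expressed in both, at 69.3, 66.6 and 68.3 CPM in A375 and 38.6, 36.3 and 35.7 in SKMel28. CDH13 was at 166 CPM in A375 and 0.0501 in SKMel28.

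More collagen and matrix genes were higher in A375 than in SKMel28. Of 23 tested collagen genes 13 were higher in A375 and 9 in SKMel28, and 20 of 33 matricellular and matrix-modifying genes were higher in A375 and 12 in SKMel28, beside 42.6% and 42.7% of all tested genes. COL13A1 was at 152 CPM in A375 and 0.366 in SKMel28 and COL5A2 at 211 and 2.21, whereas COL11A1 was at 0.00932 and 194. Integrins were nearly even, with 10 of 18 higher in A375 and 8 in SKMel28, 9 and 7 of them by at least 2-fold. The A375 side included ITGB4 at 124 and 0.224 CPM and ITGA5, the fibronectin receptor's alpha subunit, at 177 and 5.27, and the SKMel28 side ITGB3 at 7.79 and 76.5 and its partner ITGAV at 68.5 and 278. TNC, tenascin C, stood at 125, 124 and 123 CPM in resistant A375 and 81.1, 78.8 and 73.3 in resistant SKMel28, the opposite of the sensitive order of 379 and 1507.

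Proteases and their inhibitors included genes with large changes of gap. Of 29 tested genes, 17 were higher in A375 and 12 in SKMel28, beside 42.6% and 42.7% of all tested genes. MMP2, a gelatinase, was at 208 CPM in resistant A375 and 0.150 in resistant SKMel28. MMP1, interstitial collagenase, stood at 41, 39.2 and 43.7 CPM in A375 and 0.584, 0.820 and 1.2 in SKMel28, a log2 difference of 5.56 (SE 0.12, adjusted p = 9.87e-37), while in the sensitive lines SKMel28 was higher, at 99 against 11.8. TFPI2, an inhibitor of matrix serine proteases, stood at 123, 136 and 132 CPM in resistant A375 and 0 reads in resistant SKMel28, at least 4275-fold, where sensitive SKMel28 had held 95.6 ± 1.09 CPM and sensitive A375 14.5 ± 0.210. SERPINF1, which encodes the secreted factor PEDF, was the mirror image, at 0.391, 0.297 and 0.151 CPM in resistant A375 and 81.7, 90.2 and 88.9 in resistant SKMel28 beside 11.4 and 0.907 in the sensitive lines. The 250 bases before the start of TFPI2 are shown because the gene reversed its order and holds a match to TGANTCA (RefSeq, GRCh38.p14, gene strand). This pattern is a loose form of the AP-1 site that accepts any middle base, and the match, in capitals, is TGAATCA.
TFPI2, chr7:93890754-93891003, minus strand: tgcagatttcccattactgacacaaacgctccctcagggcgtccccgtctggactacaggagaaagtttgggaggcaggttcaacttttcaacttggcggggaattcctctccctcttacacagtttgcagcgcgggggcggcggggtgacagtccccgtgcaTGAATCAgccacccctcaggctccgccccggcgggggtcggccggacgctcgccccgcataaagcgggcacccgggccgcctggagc
The match begins 87 bases before the start. TGANTCA, with any middle base and on either strand, occurred in 4 of 17 matched promoters of the protease list (23.5%) and in 6.6% of all promoters. Its shares in the other lists scanned were 4.17% (undifferentiated), 6.67% (ERK output), 8.7% (melanocyte) and 13% (inflammatory). Such a match is not a measured binding site.

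Genes that p53 is known to induce were higher in A375 in 18 of 23 cases and lower in 4, beside 42.6% and 42.7% of all tested genes. Their median was 1.03 between resistant and 0.52 between sensitive lines. CDKN1A, the cell cycle inhibitor p21, had a mean of 365 ± 1.63 CPM in resistant A375 and 21.8 ± 1.26 in resistant SKMel28. TNFRSF10B, a death receptor for TRAIL, was at 147 and 0.225 CPM, against 114 and 71.7 in the sensitive lines. GDF15, a stress cytokine, was lower in A375, at 41.6 and 341 CPM. CDKN2A, the locus of p16 and ARF, stood at 4.92, 5.2 and 5.42 CPM in A375 and 48.8, 55.4 and 58.6 in SKMel28, a log2 difference of -3.39 (SE 0.08, adjusted p = 2.81e-35).

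Of 16 tested genes of the BCL2 family, 9 were higher in A375 and 7 in SKMel28, beside 42.6% and 42.7% of all tested genes. BCL2A1, a survival gene controlled by MITF, stood at 0.335, 0.297 and 0.605 CPM in A375 and 49.5, 51.7 and 54.2 in SKMel28, and BCL2 at 6.09 and 36.7. The death genes BAX, at 156 and 31.9 CPM, and BBC3, at 19.2 and 4.17, were higher in A375. Proliferation genes differed little: of 30 genes of replication and the G1-S transition 1 was at least 2-fold higher in A375 and 2 in SKMel28, and the counts for 30 mitosis genes were the same. Which line had more of the mitosis genes depended on scaling, with 10 higher in A375 and 15 in SKMel28 as fitted and 16 and 9 when libraries were scaled by their totals.

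Mitochondrially encoded and lysosomal genes leaned to SKMel28, and genes of glycolysis and hypoxia were nearly even. All 13 mitochondrially encoded protein genes were higher in SKMel28, 10 by at least 2-fold, with a median of -1.66 and read shares of 2.20% and 6.95%. The sensitive lines had a median of -1.32 and read shares of 1.92% and 4.51%. The part of the mitochondrial share in the differences of other genes was not tested. Calls made without mitochondrially encoded genes are counted in the closing section. MT-CO1 stood at 4459.8 ± 169 CPM in A375 and 23985 ± 846 in SKMel28. Nuclear genes of oxidative phosphorylation were nearer to level, 12 of 33 higher in A375 and 20 in SKMel28 with a median of -0.30, and PPARGC1A, a mitochondrial coactivator driven by MITF, stood at 1.37, 1.31 and 1.6 CPM in A375 and 19.6, 16.3 and 16.7 in SKMel28. Lysosome and autophagy genes were higher in SKMel28 in 25 of 30 cases and in A375 in 3, beside 42.7% and 42.6% of all tested genes. Their median was -1.37. ASAH1, acid ceramidase, was at 24.5 ± 1.03 CPM in A375 and 828 ± 5.53 in SKMel28, and the protease CTSD at 155 and 1294. The lysosome list was also lower in sensitive A375, with a median of -1.83. Of 32 glycolysis and hypoxia genes 16 were higher in A375 and 14 in SKMel28, 7 and 3 of them by at least 2-fold, with a median of 0.16. They included ALDOC, a glycolytic aldolase, at 12.3 and 0.121 CPM, the lactate exporter SLC16A3 at 30.5 and 9.75, the hypoxia-induced gene NDRG1 at 60.7 and 21.1, and PDK1, which restrains pyruvate oxidation, at 15.1 and 36.5.

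Targets of NRF2 and glutathione genes were higher in SKMel28 in 25 of 30 cases and in A375 in 2. Over all tested genes 42.7% were higher in SKMel28 and 42.6% in A375. The list median was -1.0 between resistant and -0.64 between sensitive lines. SLC7A11, the cystine transporter, was at 34.3 ± 1.29 CPM in A375 and 282 ± 19.3 in SKMel28, and HMOX1, heme oxygenase 1, at 22.3 and 145. GSTM2 and GSTM4 were also higher in SKMel28 but have near-identical copies and are uncertain. Cholesterol synthesis genes were higher in SKMel28 in 17 of 24 cases and in A375 in 7, among them CYP51A1 at 44.8 and 149.9 CPM. Ribosomal protein genes, which have many pseudogene copies, were higher in A375 in 23 of 30 cases and lower in 4, with a median of 0.61.

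HOX, cancer-testis and S100 families were more often higher in A375 than in SKMel28, beside 42.6% and 42.7% of all tested genes. HOX genes, which keep positional identity, were higher in A375 in 23 of 33 cases and in SKMel28 in 7, with HOXA10 at 22.6 CPM and HOXB13 at 11.8 against 0 reads in SKMel28. Cancer-testis antigens were higher in A375 in 13 of 22 cases and in SKMel28 in 7, including MAGEC2 at 166 and 0.0315 CPM, and MAGEA1, one of a family of close copies, at 0.0391 and 31.7. S100 and annexin genes were higher in A375 in 14 of 20 cases and in SKMel28 in 5, with S100A16 at 485 and 3.19 CPM, while S100B, a melanocyte and glial marker, was at 0.0957 and 185. ABCB5, a transporter known from pigment cells and melanoma, stood at 0.0303 CPM in A375 and 297 in SKMel28.

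**Figure D3:**
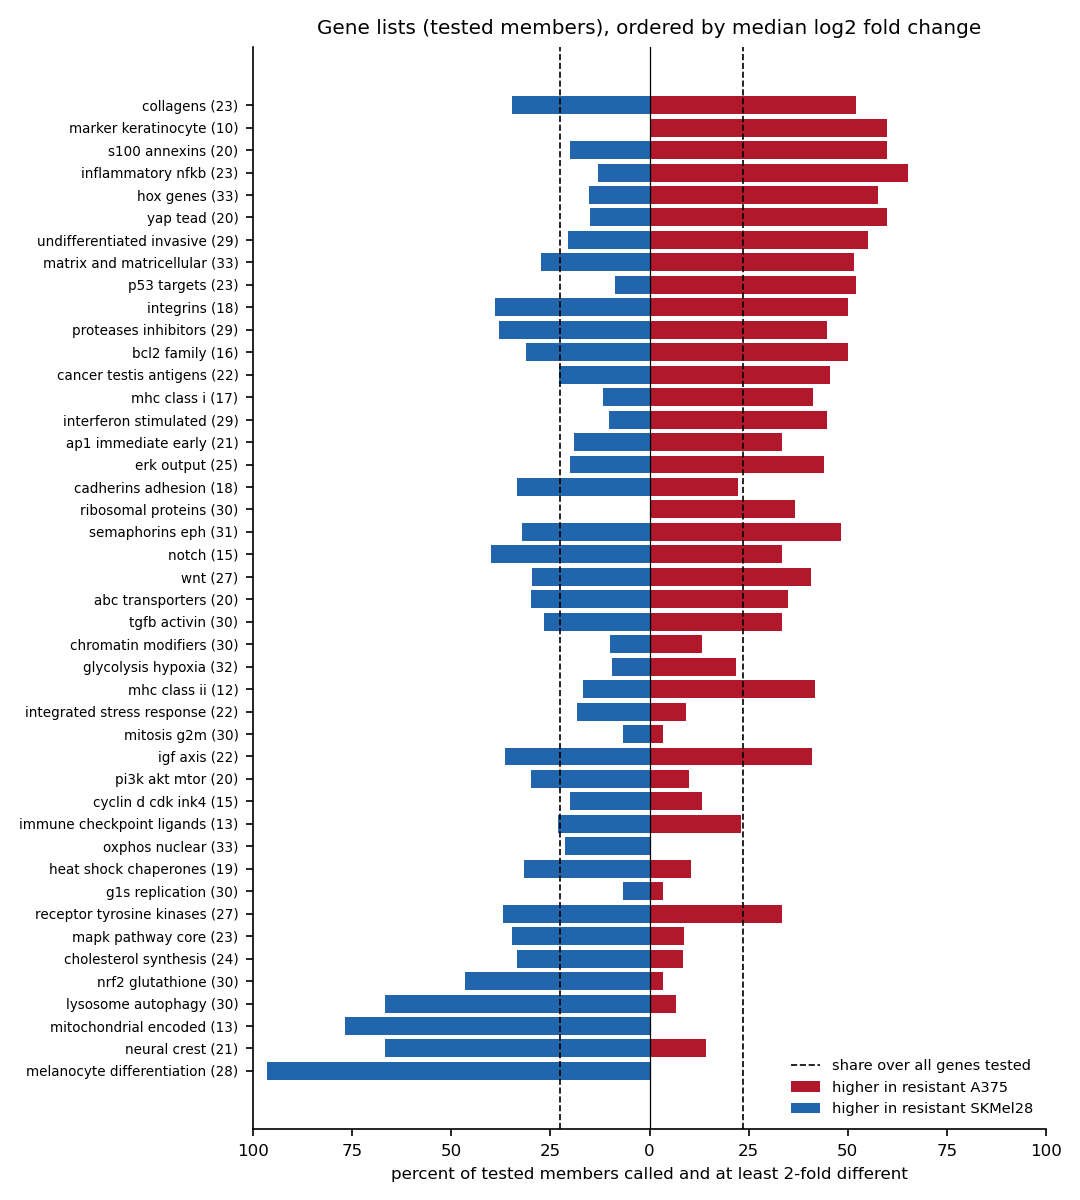
Percent of tested members of each gene list that were called and at least 2-fold higher in resistant A375 (red, right) or resistant SKMel28 (blue, left), for lists of at least 10 tested members ordered by median log2 difference, with the number of tested members in brackets and the shares over all tested genes (23.7% and 22.5%) as dashed lines. Melanocyte differentiation and mitochondrially encoded genes stand at the SKMel28 end, and proliferation lists hardly pass 2-fold on either side.

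Some gaps were wide in the resistant pair and small in the sensitive pair. In 538 genes the resistant lines were at least 2-fold apart, the sensitive lines differed by less than 25% and the change of gap was called, 296 of them higher in A375 and 242 in SKMel28. CDCP1, a substrate of SRC kinases, stood at 80.5, 76.7 and 82.4 CPM in resistant A375 and 0 reads in resistant SKMel28, at least 2624-fold, from 20.4 and 16.9 CPM in the sensitive lines. SPESP1 stood at 14.4, 13 and 14.5 CPM against 0 reads, at least 459-fold, and MAGEB2 at 13.9, 13 and 13.8 CPM against 3 reads, a ratio of 446 (95% counting interval 152 to 2166). PIK3AP1, an adaptor of PI3 kinase, stood at 14.1, 13.7 and 14.4 CPM in A375 and 0.184, 0.284 and 0.146 in SKMel28, a log2 difference of 6.09 (SE 0.19, adjusted p = 5.4e-30). In the other direction stood CDH19 and ERBB3 with FAM184A at 0.0689 and 16.2 CPM, the retinol enzyme gene LRAT at 0.988 and 29.9, and the glutamate receptor gene GRIK2 at 0.608 and 10.1. In each of these genes, picked for a called gap of at least 2-fold, the resistant groups did not overlap, as in 86.0% of all tested genes.

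In 212 genes the order of the lines was reversed between the sensitive and the resistant pair, with at least 2-fold on both sides, 105 higher in A375 and 107 in SKMel28 in the resistant pair. The A375 side included TFPI2, IL1B and MMP1, and TMEM158, a gene induced by RAS, which stood at 263, 295 and 240.3 CPM in A375 and 2.76, 3.56 and 3.53 in SKMel28 beside 23.8 and 78.5 in the sensitive lines. The SKMel28 side included SERPINF1, and JAKMIP2, at 0.531, 0.178 and 0.636 CPM in A375 and 33.7, 36.8 and 32.6 in SKMel28 beside 3.66 and 0.0546 in the sensitive lines. MAL2, a membrane trafficking protein, stood at 2.2 and 27.6 CPM beside 11.3 and 0.268 in the sensitive lines, and ELFN1 at 1.17 and 17.3 beside 0.810 and 0.155 in the sensitive lines.

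A further 305 genes were at least 2-fold apart in the sensitive pair and less than 25% apart in the resistant pair, with a called change of gap, 153 of them higher in sensitive A375 and 152 in sensitive SKMel28. NES, the neural progenitor filament nestin, stood at 27.5, 25.6 and 23.3 CPM in resistant A375 and 21.3, 21.4 and 22.3 in resistant SKMel28, against 125 and 4.06 in the sensitive lines, and HPDL, whose resistant groups overlapped, at 17.9, 16.1 and 14.7 CPM in A375 and 13.5, 15.6 and 16.6 in SKMel28 against 20.1 and 1.5. KRT14, a basal keratin, and HLA-DRB1, an MHC class II gene, were below 1 CPM in every resistant library, against 25.5 and 11.7 CPM in sensitive A375. The proton pump subunit ATP6V0D2 and the phagocytic receptor MEGF10 were also below 1 CPM in every resistant library, against 52.1 and 25.9 CPM in sensitive SKMel28. CTSH, cathepsin H, whose resistant groups also overlapped, stood at 3.16, 4.28 and 3.6 CPM in A375 and 4.27, 3.56 and 3.73 in SKMel28 against 7.34 and 104, and BCHE, butyrylcholinesterase, at 2.39 and 2.58 against 2.07 and 27.9.

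**Figure D4:**
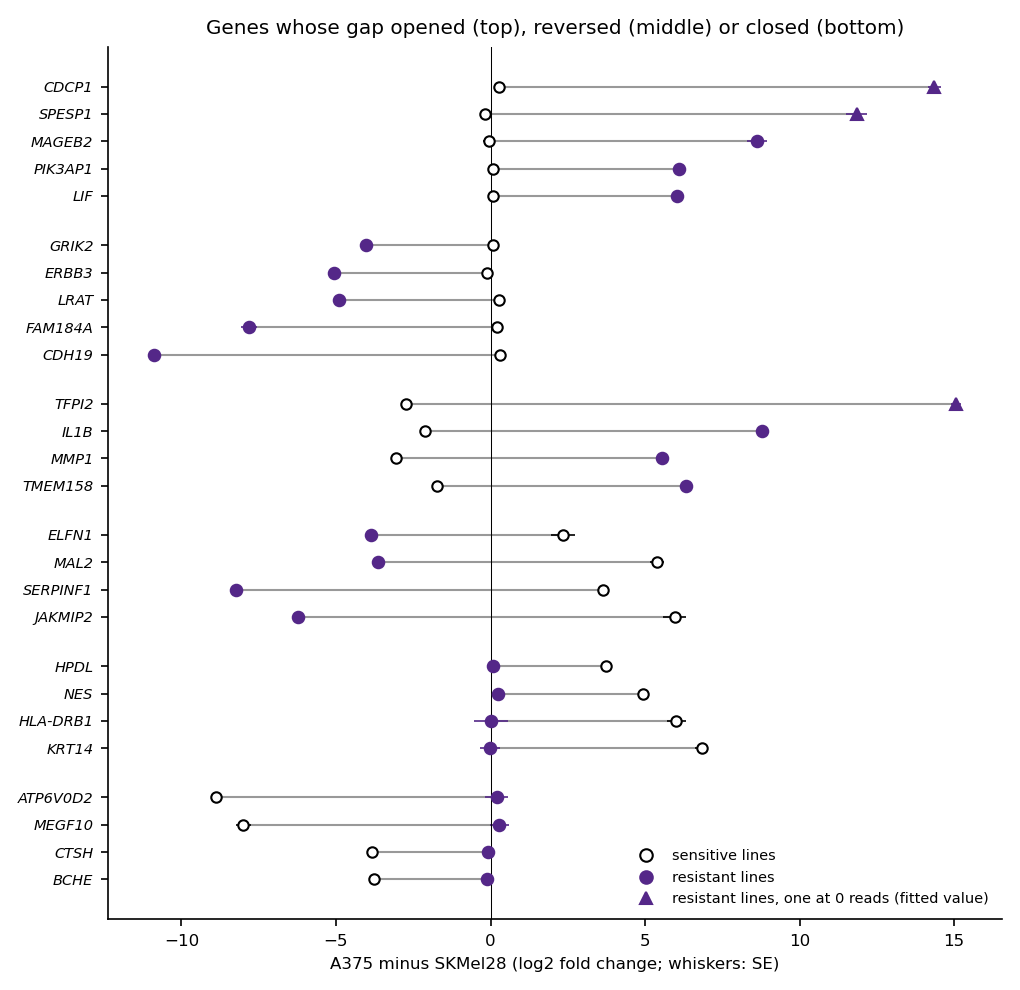
Log2 fold change of A375 over SKMel28 with its SE in the sensitive pair (open points) and the resistant pair (filled points) for the 26 genes named by rule as opened, reversed or closed gaps, with triangles for fitted values of genes at 0 reads in 1 resistant line. TFPI2 crosses from -2.72 to its fitted resistant value on the A375 side and SERPINF1 from 3.64 to -8.24.

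By chromosome, the gap between the resistant lines was not evenly spread. Over 11698 genes at a mean of 2 CPM or more with a position, the median log2 difference was -0.06. The lowest arm medians were on 2q (-1.10, 467 genes), 3q (-0.86, 344 genes), 22q (-0.82, 279 genes) and 1p (-0.76, 655 genes), and the highest on Xp (0.99, 169 genes), 11q (0.92, 439 genes), 1q (0.61, 537 genes) and 16q (0.53, 246 genes). On 2q, 376 genes were higher in SKMel28 and 66 in A375. The sensitive lines had similar medians on 2q (-0.94), 22q (-0.95) and 11q (0.73), but were closer to level on 1p (-0.18) and Xp (0.21). DNA copy number was not measured, and the differences between resistant and sensitive arm medians were not tested.

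**Figure D5:**
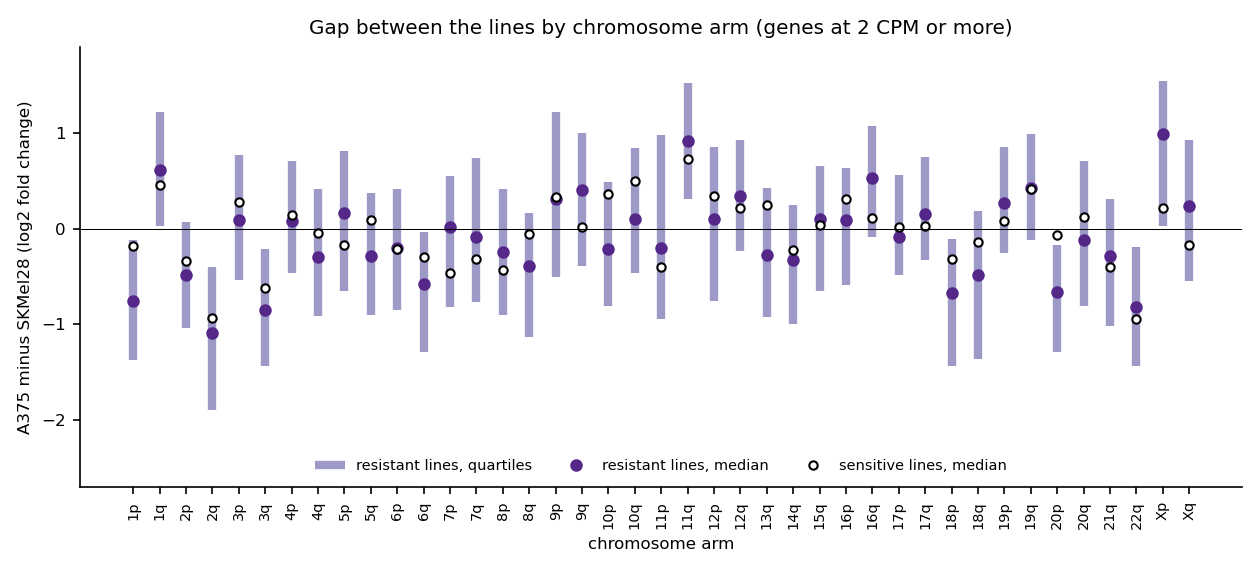
Median log2 fold change of A375 over SKMel28 by chromosome arm for genes at 2 CPM or more, in the resistant pair (filled points, with bars from the lower to the upper quartile) and the sensitive pair (open points). The arms 2q, 3q and 22q lie below 0 in both pairs and 11q and 1q above 0 in both, and 1p and Xp lie farther from 0 in the resistant pair.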

How the data were processed

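Poly(A)-selected RNA was sequenced from 12 libraries, 3 in each of 4 groups, per the labels' protocols. The authors deposited raw read counts, 1 table per library, over 26499 gene symbols. HISAT2, StringTie and GRCh38.p12 appear in the submitters' processing notes, while the names of the deposited tables point to STAR and unstranded counting, so which aligner made the counts is not settled, and overlapping or antisense genes cannot be told apart. Summary lines were dropped. They held 15.1% to 18.4% of counted reads in the resistant libraries. Reads that met more than 1 place made up 4.65% in resistant A375 and 2.26% in resistant SKMel28 on average. In the sensitive lines the averages were 4.78% and 4.23%. The part of this difference in the results was not tested.

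Counts were filtered with filterByExpr (15506 genes left), TMM-scaled, and tested with the robust quasi-likelihood method of edgeR 4.0.16 in R 4.3.3, using a single model of all 4 groups (residual df 8). Tests were two-sided, with p-values adjusted over the 15506 genes by Benjamini-Hochberg and a call threshold of 0.05. Differences are A375 minus SKMel28, and the change of gap is the resistant minus the sensitive difference. A bound for a gene at 0 reads uses a floor of 3 reads over the group, and a ratio against 1 to 3 reads has an exact binomial 95% interval; both account for counting error alone, because these reads carry no molecular identifiers and duplicates cannot be removed. Replicates within the resistant groups differed by chi-square values of 3.08 to 7.14 per degree of freedom, and none was a copy.

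The 49 gene lists (1065 genes, 996 tested), the named genes and the comparison were chosen with earlier results of these data known, and many genes belong to several lists. Named genes were the 12 highest in each line by fitted difference (called, at least 10 CPM in the higher group, no overlap), 36 core genes, up to 4 called members of largest difference per list, and genes whose gap opened, reversed or closed. That rule passed over unnamed loci, antisense and small RNAs, the X-linked transcripts XIST and TSIX, and sex-linked genes of the Y chromosome. Positions came from GENCODE 29 (23913 symbols matched directly and 25 through another symbol, 2561 unmatched). Promoter sequences came from RefSeq. Alternatives were other scalings and filters, DESeq2 1.42.0, a replicate block, a test against a 1.5-fold change, fits without mitochondrially encoded genes or without the sensitive libraries, and each library left out in turn.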

Additional observations from a re-analysis of the deposited data

Results flagged for a closer look

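Of 60 core and gap-change genes, 46 had a change of gap that was called and at least 2-fold, which means that the difference between the resistant lines and the difference between the sensitive lines were not the same by edgeR's interaction test. The change was towards A375 in 26 genes and towards SKMel28 in 20. Values are log2 differences between the 2 gaps, positive towards A375. The genes entered this group partly by rules that used the change itself, so the counts describe the choice.

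Towards SKMel28, lineage genes had the values SOX10 (-10.84), ERBB3 (-4.96), CDH19 (-11.21), SOX2 (-4.32), TYRP1 (-2.32), MITF (-1.02) and NES (-4.70). Receptor and adhesion genes had IGF1R (-1.58), MET (-1.86) and CDH1 (-3.36). The others were JAKMIP2 (-12.20), SERPINF1 (-11.89), MAL2 (-9.05), FAM184A (-8.01), KRT14 (-6.85), ELFN1 (-6.24), HLA-DRB1 (-5.999), LRAT (-5.19), GRIK2 (-4.13) and HPDL (-3.64). SOX10 and ERBB3 had been expressed in both sensitive lines and were near 0 or low in resistant A375 only.

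Towards A375, signalling and ERK output genes had EGFR (1.07), MYC (1.36), DUSP6 (1.60), CCND1 (1.899), FOSL1 (2.41) and IRS1 (2.41). MYC was nevertheless lower in resistant A375, at 34.3 CPM against 136 in resistant SKMel28. Its log2 difference was -1.98 between resistant lines and -3.35 between sensitive lines, so its gap narrowed without changing sides. Cytokine and matrix genes had IL1B (10.90), CXCL8 (3.16), LIF (5.98), MMP1 (8.62) and TNC (2.67). Lineage, cell cycle and survival genes had SOX9 (4.38), NGFR (3.35), CDKN2A (2.41) and BCL2A1 (1.46), of which BCL2A1 was no longer called without sensitive A375 library 1 (0.94, adjusted p = 0.0576). The others were BCHE (3.65), CTSH (3.76), PIK3AP1 (6.002), TMEM158 (8.06), MEGF10 (8.28), MAGEB2 (8.69) and ATP6V0D2 (9.07). TFPI2 (17.78), CDCP1 (14.08), SPESP1 (12.03) and DCT (3.78) had 0 reads in 1 of the 4 groups, so the size of their fitted change depends on the small count added in the fit.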

How the results depend on the processing

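No count of called genes over all genes tested, in any comparison or direction, moved by more than 1.5 times under the alternatives run. Genes called between the resistant lines numbered 13223 as fitted, 13204 by DESeq2, 13279 with DESeq2's size factors, 13374 with scaling by library totals, 13930 without a filter, 11689 with a mean of at least 1 CPM, 13224 without mitochondrially encoded genes, 12956 in a fit of the 6 resistant libraries and 8912 in a test against a 1.5-fold change. Leaving out each library in turn gave 13023 to 13432 calls between the resistant lines and 9541 to 9807 for the change of gap. Scaling by library totals moved the median difference of all genes from 0.01 to 0.23, and 57.8% of calls were then higher in A375 against 49.9%. Under it CCND1 turned from -0.14 to 0.0699, the only called resistant gap of a named gene that turned under any alternative run, HPDL became called (adjusted p = 0.00285), and the order of the mitosis list turned to 16 and 9. Counts for single gene lists moved by more than 1.5 times in 33 cases under these alternatives, 24 of them in the test against a 1.5-fold change, where the order of the Notch list turned from 8 and 7 to 6 and 7, and in 10 cases without a single library, all of them from 0 to 1 keratinocyte marker higher in SKMel28. In the test against a 1.5-fold change CCND1 and NES were no longer called. Among changes of gap, IGFBP3, DCT, PPARGC1A, BCL2A1, PMEL and INSR each lost the call without 1 or more single libraries, with adjusted p from 0.0520 to 0.204, and IGFBP3 also under library totals (adjusted p = 0.0758). The arm median of 18p moved from -0.67 to -0.40 with a minimum of 10 CPM.

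Replicate numbers are shared between groups, but same-numbered resistant libraries deviated from their group means with correlations of -0.0574, -0.00912 and -0.0662, and no resistant A375 library correlated best with its own number in SKMel28, so the numbers do not pair the libraries. With the replicate block 13165 genes were called between the resistant lines and 9768 for the change of gap. Depth limits values near 0: a gene without reads in a resistant group can only be given a bound.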
